A study of Rattus norvegicus with 22 samples.

Results

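The genes described here carry the names of families of transcription factors that pattern the embryo. They were chosen by symbol: a probe set was a member when its only annotated gene symbol began with Hox, Sox, Pax, Tbx, Fox, Dlx, Msx, Lhx, Pitx, Gata, Nkx, Alx or Prrx, or with the first letters shared by Six3 and Six5, followed by a letter or a digit. The rule took 78 of 10411 genes, measured by 101 of 15866 probe sets. Of these, 69 genes with 88 probe sets are members of the families. The other 9 genes, with 13 probe sets, share only the opening letters or are partners of family members: the thromboxane receptor Tbxa2r, the thromboxane synthase Tbxas1, Foxred1, Gatad1, Gatad2a, Paxbp1, Paxip1, the DNA repair factor Paxx and the antisense RNA Hoxa11-as. Fox genes were the most numerous (24 symbols on 33 probe sets), followed by Sox (9 on 12), Gata (8 on 13) and Hox (8 genes and the antisense RNA on 9).

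Patterning factors bind DNA and switch on the genes of a body region, a germ layer or a cell type. Hox genes lie in 4 clusters and are used along the head-to-tail axis in the order of their place in the cluster, and retinoic acid, the active form of vitamin A, is a known regulator of that order. Sox and Pax factors act in the forming nervous system, Dlx, Msx, Prrx, Alx and Pitx factors in the mesenchyme of face, limbs and skeleton, Tbx factors in limb and heart, Foxa and Gata factors in the liver, and Gata1 in the making of red blood cells.

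RNA of 22 Wistar rat samples was measured, each on 1 single-colour array. Dams received retinoic acid at 12 mg/kg/day (RA), the calcium sensitiser EMD 82571, called MSC1096199 in the design text, at 50 or 150 mg/kg/day (EMD50 and EMD150), or vehicle (control). Dosing began on gestational day 6 and ended on day 11 or day 17 per the labels' protocol, and the labels do not tie a schedule to a sample. The samples were whole embryo at day 12 (5 arrays), embryo bone and embryo liver at day 20 (4 arrays each), and maternal liver at day 20 (4 arrays) and at day 12 (5 arrays). Every stratum, that is a tissue at a day, had 1 RA, 1 EMD50, 1 EMD150 and 1 control array. Whole embryo and maternal liver of day 12 had a second RA array, and their RA samples are RA5 and RA56, codes that the labels do not explain. The RA arrays of day 20 are RA56. Nothing in the labels says that samples came from separate dams or litters, so p-values measure only the spread between these samples, which may be technical.

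All values are log2 array signals, so a difference of 1 is a 2-fold difference, and levels are compared within a probe set only. The array medians lay between 8.09 and 8.22, and the correlation of whole arrays was 0.9538 to 0.9963 within strata. Several arrays stood apart, and some of the results that rest on them are also given without them below. Embryo bone RA had the lowest mean of the neural markers among the bone arrays (7.28, against 8.46 in control, 8.55 in EMD50 and 8.89 in EMD150), maternal liver RA of day 20 the highest mean of skeletal muscle markers in its stratum (9.51, against 7.48 to 7.65 in the others), and both whole-embryo RA arrays the highest mean of hepatocyte markers (9.11 in RA5 and 9.14 in RA56, against 8.46 in control, 8.24 in EMD50 and 8.11 in EMD150). The bone EMD50 array had a GAPDH signal 2.72 higher at the 3′ than at the 5′ probe set, against 0.568 to 0.859 in the other 21 arrays, and the embryo liver EMD150 array had the smallest spread of values (SD 1.51). Embryo bone also held skeletal muscle markers (array means 11.4 to 12.5) and keratinocyte markers (11.3 to 11.4), the highest of the 5 strata for both lists.

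Whole embryo was the stratum in which these genes were most often highest. It had the highest mean for 43 of the 101 probe sets (42.6%, against 30.5% of all probe sets) and embryo liver for 30 (29.7%, against 24.7%). Maternal liver of day 20 was highest for 13 (12.9%, against 15.5%), embryo bone for 11 (10.9%, against 16.5%) and maternal liver of day 12 for 4 (3.96%, against 12.8%). Of the 88 probe sets of the families alone, whole embryo was highest for 35. In 16 probe sets (15.8%, against 11.3% of all) every whole-embryo array lay above the other 17 arrays. These were Sox3, Hoxa5, Tbx5, Sox11, Foxm1, Sox2, Hoxa10, Lhx2, Sox13, Foxk2, Gata5 and Nkx6-1 of the families, and Gatad2a, Paxbp1, Paxip1 and Gatad1 outside them. Sox2, Foxk2 and Gatad1 each had another probe set that was called lower in whole embryo than in maternal liver of day 12: 1389826_at (-0.22), 1389880_at (-0.25) and 1389925_at (-0.21). The distance was at least 1 in 2 of the 16 probe sets, Sox3 and Hoxa5 (1.98%, against 0.479% of all). Differences between strata were otherwise not large for the set as a whole: the range of the 5 stratum means reached 1 in 30 probe sets (29.7%, against 37.8% of all) and 2 in 11 (10.9%, against 14%).

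**Figure D1:**
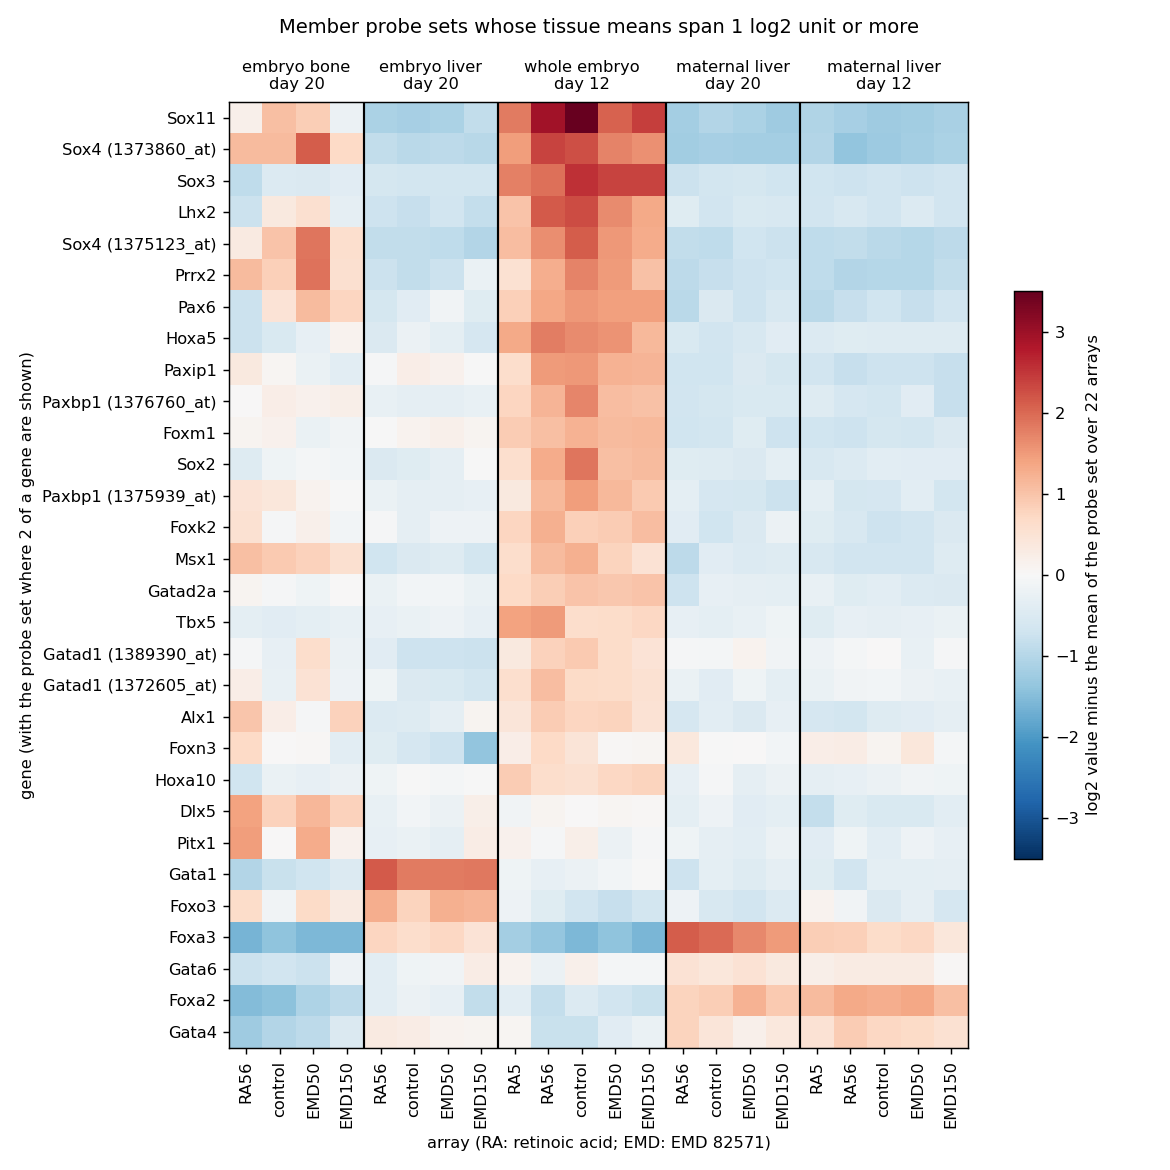
The 30 member probe sets whose stratum means span at least 1 (rows, grouped by the stratum with the highest mean) by array (columns), as the log2 value minus that probe set's mean over all 22 arrays, with the colour scale in log2 units and strata from embryo bone to maternal liver of day 12. Sox3, Sox11, Sox4 and Hoxa5 are high in whole embryo, Gata1 in embryo liver, and Foxa3 in the liver strata.

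The first comparison set whole embryo of day 12 against maternal liver of the same day. Of the 101 member probe sets, 74 passed (limma, adjusted p under 0.05), 47 higher and 27 lower in whole embryo. Among all probe sets 69.8% passed, 35.5% higher and 34.3% lower, so the 73.3% of members is close to the background. At least 2-fold differences were higher for 18 members, where all probe sets gave 15.4%, and lower for 3, where all gave 10.1%. In bulk tissue, fewer cells of a type and less RNA per cell cannot be told apart, here and in every comparison of tissues.

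Factors of the neural tube and neural progenitors led the genes higher in whole embryo. Sox11, a factor of immature neurons, had 8.63 (RA5), 9.75 (RA56), 10.34 (control), 8.88 (EMD50) and 9.25 (EMD150) in whole embryo, against 5.78, 5.66, 5.58, 5.61 and 5.68 in maternal liver. Every embryo array was above every maternal liver array, and the whole-embryo control was the highest of all. The difference was 3.71 ± 0.23 (SE; limma, adjusted p = 2.2e-11). Sox3, which keeps neural progenitors undifferentiated, had 8.61, 8.77, 9.41, 9.20 and 9.20 in whole embryo in the same order, against 6.11 to 6.18 in maternal liver. Its whole-embryo arrays also stood clear of bone (5.95 to 6.46) and embryo liver (6.19 to 6.23), and its difference from maternal liver was 2.89 ± 0.096 (limma, adjusted p = 1.46e-15). Sox4, which acts with Sox11 in progenitors and in mesenchyme, rose by 3.08 ± 0.19 and by 2.44 ± 0.19 at its main probe sets, while its other probe set, 1375257_at, differed by -0.03.

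Sox2, the partner of Sox3 in neural stem cells, averaged 7.38 ± 0.46 in whole embryo and 5.76 ± 0.080 in maternal liver (SD, n = 5 each), a difference of 1.62 ± 0.14 (limma, adjusted p = 1.98e-09). Its other probe set, 1389826_at, differed by -0.22. Lhx2 and Pax6, factors of forebrain and eye, rose by 2.30 ± 0.20 and 2.11 ± 0.18. Prrx2, a factor of limb and facial mesenchyme, rose by 2.18 ± 0.20, Msx1 of limb bud and face by 1.45 ± 0.13, Tbx5 of forelimb and heart by 1.29 ± 0.12, and Alx1 of facial cartilage by 1.14 ± 0.15. Foxm1, which drives cells into division, rose by 1.71 ± 0.09. Paxip1, a DNA damage and chromatin adaptor, and Paxbp1 are not Pax factors themselves, and rose by 1.95 ± 0.14 and 1.73 ± 0.12.

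The largest differences among the genes lower in whole embryo were those of liver endoderm factors. Foxa3, a liver forkhead factor, had 6.54 to 6.95 in whole embryo, against 8.52 to 9.0 in maternal liver of day 12, with no overlap. The difference was -2.12 ± 0.091 (limma, adjusted p = 7.42e-14). Foxa2, which opens chromatin for liver genes, fell by 1.85 ± 0.13, Gata4 by 1.09 ± 0.16 at one probe set and 0.51 ± 0.095 at the other, and Foxa1 by 0.79 ± 0.066. Other called members were lower by less than 0.60, led by Tbxas1 (0.58 lower) and Foxo1, a target of insulin signalling (0.48 lower).

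Embryo bone of day 20 was then set against whole embryo of day 12, a contrast of both tissue and age. Of the member probe sets 51 passed (50.5%, against 46.6% of all), 12 higher and 39 lower in bone. Over all probe sets 19.9% were higher and 26.7% lower, against 11.9% and 38.6% of the members. Among the 88 probe sets of the families alone, 12.5% were higher and 34.1% lower. Of the members, 11 fell at least 2-fold (10.9%, against 5.67% of all) and 1 rose that far (0.99%, against 5.29% of all). The 11 were Sox3 (-2.79 ± 0.10), Sox11 (-2.10 ± 0.25), Hoxa5 (-1.87 ± 0.15), Lhx2 (-1.76 ± 0.22), Sox2 (-1.41 ± 0.14), Tbx5 (-1.29 ± 0.13), Paxip1 (-1.26 ± 0.15), Foxm1 (-1.12 ± 0.096), Hoxa10 (-1.09 ± 0.081), Paxbp1 (-1.02 ± 0.13) and Pax6 (-1.0 ± 0.19). The second Sox2 probe set, 1389826_at, was not called (-0.05). The Pax6 and Lhx2 differences include the bone RA array, which was the lowest bone array for both, and they are not given without it. The Pax6 difference lies at the 2-fold limit.

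The gene that rose at least 2-fold was Dlx5, a homeobox factor of bone-forming cells. Dlx5 had 9.16 (RA), 8.55 (control), 8.90 (EMD50) and 8.54 (EMD150) in bone, against 7.62, 7.84, 7.76, 7.82 and 7.78 in whole embryo. Every bone array was above the other 18 arrays, and Dlx5 was the 1 member of which this held (0.99%, against 5.02% of all probe sets). The difference was 1.02 ± 0.13 (limma, adjusted p = 3.15e-06). Foxo3, a factor of stress and cell survival, rose by 0.98 ± 0.12 at 1 of its 3 probe sets, 1376593_at, and was not called at the other two (0.05 and 0.03; limma, adjusted p = 0.643 and 0.806). Pitx1, which specifies the hindlimb, had 9.20, 7.74, 9.01 and 7.87 in bone RA, control, EMD50 and EMD150, against 7.51 to 7.92 in whole embryo. Only the bone RA and EMD50 arrays were high, the other two overlapping whole embryo. Its call (0.75 ± 0.22, limma adjusted p = 0.00884) was lost without bone RA (0.48, adjusted p = 0.0760) or without bone EMD50 (0.54, adjusted p = 0.0529), and the 2 control arrays differed the other way (-0.18).

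Other mesenchymal factors, Msx1, Prrx1, Prrx2 and Alx1, were not called between bone and whole embryo, unlike Dlx5. Msx1 had 10.41, 10.27, 10.18 and 9.91 in bone RA, control, EMD50 and EMD150, against 9.86 to 10.60 in whole embryo, a difference of -0.03 ± 0.14 (limma, adjusted p = 0.903). The values overlapped throughout. Prrx2 differed by -0.15 ± 0.22, Prrx1, its partner in limb and craniofacial mesenchyme, by 0.09 ± 0.20 and 0.05 ± 0.11 at its probe sets, and Alx1 by -0.17 ± 0.16, none of them called. Sox4 fell by 0.63 ± 0.21 (limma, adjusted p = 0.0169) and, at another probe set, by 0.61, and was not called at 1375257_at (0.12).

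**Figure D2:**
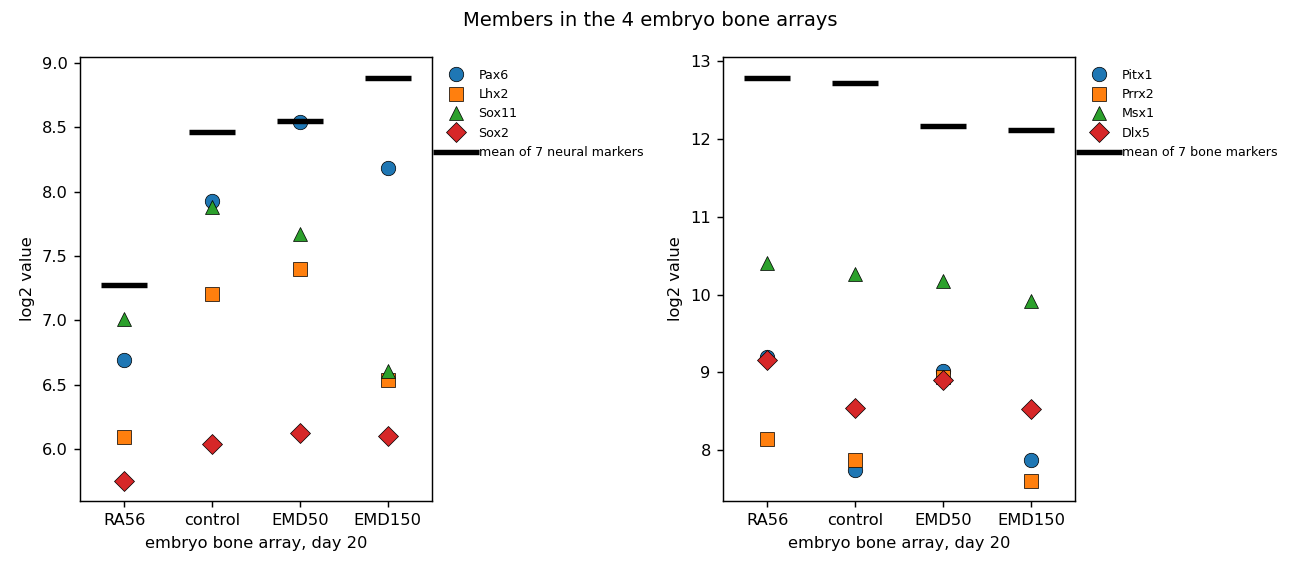
Log2 values in the 4 embryo bone arrays of day 20 (RA56, control, EMD50, EMD150), with neural member genes on the left and mesenchymal ones on the right, 1 point per array, and the mean of 7 neural or 7 bone marker genes as a bar. Each gene is to be read across arrays, not against another gene: Pax6 and Lhx2 are lowest in the RA array (6.69 and 6.09), as is the neural marker mean (7.28), and Pitx1 is high in RA and EMD50 (9.20 and 9.01).

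The bone arrays differed among themselves for the neural genes. Pax6 had 6.69 in bone RA, against 7.93 in control, 8.54 in EMD50 and 8.18 in EMD150, and Lhx2 had 6.09 in bone RA, against 7.21, 7.40 and 6.54. Both were lowest in the RA array, at 6.69 and 6.09, which for Lhx2 is within the 6.02 to 6.44 of the liver arrays. The mean of the neural markers (7 of 8 genes measured) was also lowest in that array, at 7.28, against 8.46 to 8.89 in the other bone arrays and 6.65 to 7.05 in the livers. The part of these markers in the Pax6 and Lhx2 values was not tested.

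Embryo bone against embryo liver compares tissues of the same age. Of the member probe sets 57 passed (56.4%, against 55.2% of all), 24 higher (25.6% of all) and 33 lower (29.6% of all) in bone. Sox4 was higher by 2.18 ± 0.22, Prrx2 by 1.75 ± 0.23, Sox11 by 1.54 ± 0.26, Msx1 by 1.41 ± 0.15, Dlx5 by 1.14 ± 0.14, Prrx1 by 0.90 ± 0.21 and Pitx1 by 0.87 ± 0.23. The probe sets of the forkhead repressor Foxn3 went opposite ways, 1388700_at and 1377713_at being higher in bone by 0.87 ± 0.15 and 0.63 ± 0.12 and 1375665_at lower (-0.28 ± 0.12, limma adjusted p = 0.0479). Sox4 was not called at 1375257_at (-0.15). Lower in bone were Gata1 (-2.66 ± 0.11), Foxa3 (-2.18 ± 0.10), Gata4 (-1.12 ± 0.18), Foxa2 (-0.81 ± 0.15), Foxo3 (-0.74 ± 0.13) and Gata6, a factor of endoderm (-0.48 ± 0.14). In 10 probe sets (9.9%, against 9.06% of all) every whole-embryo and bone array was above every liver array: Msx1, Prrx1, Prrx2, Sox11, Foxd2, Foxp1, and Sox4 and Paxbp1 with a pair of probe sets each.

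Embryo liver of day 20 differed from whole embryo in 74 member probe sets (73.3%, against 72.9% of all), 34 higher (39.2% of all) and 40 lower (33.6% of all). The genes with the largest rises were Foxa3 (2.09 ± 0.097), Gata1 (2.04 ± 0.11) and Foxo3 (1.72 ± 0.12), and only these rose at least 2-fold, where 6.19% of all probe sets did. Foxo1 (0.72 ± 0.12), Gata4 (0.64 ± 0.17) and Sox6, which acts in red cell and cartilage development (0.62 ± 0.081), rose by less. Of the members, 19 fell at least 2-fold (18.8%, against 12.6% of all), among them Sox11 (-3.63 ± 0.25), Sox3 (-2.86 ± 0.10), Sox4 (-2.80 ± 0.21), Lhx2 (-2.47 ± 0.22), Hoxa5 (-1.91 ± 0.15), Prrx2 (-1.90 ± 0.22), Pax6 (-1.78 ± 0.19) and Sox2 (-1.53 ± 0.14). The Foxo3 value is that of 1376593_at, and its other probe sets rose by 0.51 and 0.24. For Sox4 and Sox2 a further probe set of each, 1375257_at and 1389826_at, went the other way and rose by 0.27 and 0.25. Foxk2, another forkhead repressor, had opposite calls as well: 1389880_at rose by 0.46 ± 0.091 and 1398328_at fell by 1.11 ± 0.11.

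Embryo liver against maternal liver of day 20 compared the fetal with the adult organ. Of the member probe sets 16 passed (15.8%, against 33% of all), 8 in each direction, against 16.4% of all probe sets higher and 16.6% lower. Gata1, the master factor of red cell precursors, which are made in the fetal liver, had 9.87 (RA), 9.55 (control), 9.54 (EMD50) and 9.57 (EMD150) in embryo liver, against 7.0, 7.38, 7.26 and 7.42 in maternal liver of day 20. All embryo liver arrays were above the other 18 arrays by more than 1, which held for no other member (0.99%, against 0.372% of all). The difference was 2.37 ± 0.11 (limma, adjusted p = 1.46e-12). The mean of the erythroid markers (3 of 6 genes measured) was 13.5 to 13.7 in embryo liver, against 9.96 to 10.7 in maternal liver of day 20, and its part in the Gata1 difference was not tested. In bone the erythroid mean was 11.5 to 12.2, and Gata1 lay between 6.69 and 7.25.

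Foxo3 was higher in embryo liver by 1.59 ± 0.13 at 1376593_at, with 10.63, 10.14, 10.61 and 10.54 in RA, control, EMD50 and EMD150, against 9.18, 8.81, 8.69 and 8.87 in maternal liver of day 20. These groups did not overlap, and all embryo liver arrays also lay above the bone arrays (9.24 to 10.04). The other Foxo3 probe sets were not called (0.16 and 0.03; limma, adjusted p = 0.154 and 0.833). Sox6 was higher by 0.74 ± 0.085, Foxm1 by 0.72 ± 0.10, and Foxo4 by 0.57 ± 0.11. The liver forkhead factors were lower in embryo liver: Foxa2 by -1.37 ± 0.15, Foxa3 by -1.18 ± 0.10 and Foxa1 by -0.32 ± 0.074. Foxn3 was lower at 2 of its 3 probe sets (-0.85 ± 0.15 and -0.59 ± 0.12) and Gata6 at 1 of 2 (-0.54 ± 0.14), while Gata4 was not called (-0.24 ± 0.18 and -0.23 ± 0.11).

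Maternal liver of day 20 against day 12 moved few of these genes. Foxa3 rose and Foxa1 fell, and the other 99 probe sets were not called (1.98% called, against 4.47% of all, 1.99% higher and 2.48% lower). Foxa3 had 10.24, 10.11, 9.81 and 9.61 in RA, control, EMD50 and EMD150 of day 20, against 9.0 (RA5), 8.95 (RA56), 8.78 (control), 8.86 (EMD50) and 8.52 (EMD150) of day 12. The days did not overlap, and within each day the EMD150 array was the lowest. The difference was 1.15 ± 0.097 (limma, adjusted p = 6.25e-07). Foxa1 had 6.29, 6.01, 5.92 and 6.09 at day 20, against 6.19 to 6.46 at day 12, which overlap, with a difference of -0.26 ± 0.071 (limma, adjusted p = 0.0401). That call was lost under 13 of the alternatives, with adjusted p-values of 0.0513 to 0.188, among them the omission of any of 10 single arrays.

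The liver factors thus had 3 orders of level. Foxa3 stood highest in maternal liver of day 20 (9.61 to 10.24), then overlapped between maternal liver of day 12 (8.52 to 9.0) and embryo liver (8.60 to 8.88), and was lowest in whole embryo and bone (6.51 to 6.95). Foxa2 was highest in the maternal livers of both days (9.51 to 10.11), which overlapped, then in embryo liver (7.89 to 8.53) and whole embryo (7.91 to 8.37), which also overlapped, and lowest in bone (7.22 to 7.82). Gata4 at 1387894_at overlapped between embryo liver (9.35 to 9.58) and the maternal livers (9.43 to 10.14), with whole embryo at 8.47 to 9.31 and bone at 8.01 to 8.75. Foxa1, Foxa3 and both Gata4 probe sets were among the 7 probe sets (6.93%, against 7.76% of all) in which every liver array was above every whole-embryo and bone array.

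The promoters of 5 genes, picked after their values were seen, are printed as examples of different patterns: Sox11 for whole embryo, Foxa3 and Gata1 for liver, Tbx5 for the smallest p under retinoic acid, and Prrx2 for whole embryo and bone above the livers. They are RefSeq sequences of the GRCr8 build, 250 bases upstream of the start site, read 5′ to 3′ in the direction of the gene, with motif letters in capitals. Both strands were searched for CCAAT of many core promoters, TATAAA of the TATA box, AGGTCA of retinoic acid receptors, AGATAA of the Gata family, TGTTTAC of forkhead factors, ACAATG of Sox factors and TAATTA of homeobox factors, and no motifs overlapped in the sequences shown. Sox11 lies at chr6:49738795-49739044 on the minus strand, with the CCAAT motif on the opposite strand, printed as ATTGG. Foxa3 lies at chr1:87799486-87799735 on the minus strand, with the CCAAT motif and a TATA box. Gata1 lies at chrX:17201387-17201636 on the plus strand, with the letters ACAATG. Tbx5 at chr12:42395360-42395609 on the minus strand and Prrx2 at chr3:34530081-34530330 on the plus strand held none of the motifs.
Sox11: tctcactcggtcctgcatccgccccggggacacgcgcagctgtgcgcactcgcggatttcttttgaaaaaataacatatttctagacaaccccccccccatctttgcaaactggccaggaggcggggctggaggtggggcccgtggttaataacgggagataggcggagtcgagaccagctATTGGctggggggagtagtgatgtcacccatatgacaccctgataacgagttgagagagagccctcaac
Foxa3: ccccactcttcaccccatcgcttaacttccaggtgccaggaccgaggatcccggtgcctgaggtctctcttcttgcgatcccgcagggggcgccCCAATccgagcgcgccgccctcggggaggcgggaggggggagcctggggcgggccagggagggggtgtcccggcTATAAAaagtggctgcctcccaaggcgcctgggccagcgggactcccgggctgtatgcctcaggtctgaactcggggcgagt
Gata1: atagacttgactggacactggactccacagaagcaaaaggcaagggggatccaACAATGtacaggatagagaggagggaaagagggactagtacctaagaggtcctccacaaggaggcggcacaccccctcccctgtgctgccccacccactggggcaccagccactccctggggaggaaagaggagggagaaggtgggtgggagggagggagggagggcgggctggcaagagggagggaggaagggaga
Tbx5: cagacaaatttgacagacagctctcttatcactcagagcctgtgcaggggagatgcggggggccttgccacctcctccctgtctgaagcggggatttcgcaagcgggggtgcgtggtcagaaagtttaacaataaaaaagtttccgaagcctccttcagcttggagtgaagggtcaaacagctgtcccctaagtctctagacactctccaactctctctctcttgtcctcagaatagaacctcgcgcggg
Prrx2: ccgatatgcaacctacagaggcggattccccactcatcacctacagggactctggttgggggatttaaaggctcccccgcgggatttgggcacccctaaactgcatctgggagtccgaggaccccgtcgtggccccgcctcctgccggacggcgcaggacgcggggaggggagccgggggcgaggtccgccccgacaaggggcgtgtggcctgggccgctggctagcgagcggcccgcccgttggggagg

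The RefSeq table held promoters for 49 of the 69 family genes, matched by gene ID. Their median GC content was 62.4%, against 51.2% for 33469 promoters, and their median number of CpG pairs was 15, against 5. CCAAT was present in 42.9% of the members' promoters (34% of all), TATAAA in 12.2% (12.9%), AGGTCA in 8.16% (14.1%), TAATTA in 4.08% (4.86%), ACAATG in 4.08% (11.1%), TGTTTAC in 2.04% (3.21%) and AGATAA in none (10.3%). A match is a run of letters and not a binding site, and the absence of a match says only that those letters are not in this window.

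The 8 Hox genes on the array came from all 4 clusters and from paralog groups 3 (Hoxd3), 4 (Hoxc4), 5 (Hoxa5), 7 (Hoxb7), 8 (Hoxc8 and Hoxd8), 10 (Hoxa10) and 11 (Hoxa11). Hoxa5, which patterns the neck, lung and thoracic skeleton, was the one with the widest range. Hoxa5 had 7.94, 8.42, 8.27, 8.20 and 7.75 in whole embryo (RA5, RA56, control, EMD50, EMD150), against 6.13, 6.20, 6.16, 6.18 and 6.17 in maternal liver of day 12. Every whole-embryo array was above the other 17 arrays, of which bone EMD150 was the highest, at 6.74. The difference from maternal liver was 1.95 ± 0.14 (limma, adjusted p = 1.28e-10), and bone and embryo liver were lower than whole embryo by -1.87 ± 0.15 and -1.91 ± 0.15.

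Hoxa10 and Hoxa11, which pattern the posterior trunk, the limbs and the reproductive tract, were also highest in whole embryo, with smaller distances. Hoxa10 had 6.45 to 6.78 in whole embryo, against 5.56 to 5.77 in maternal liver of day 12, and bone was the lowest stratum, at 5.19 to 5.68. The whole-embryo values were above all others, and the difference from maternal liver was 0.93 ± 0.076 (limma, adjusted p = 1.27e-09). Hoxa11 differed from maternal liver by 0.45 ± 0.076, Hoxd3, of the hindbrain and neck, by 0.36 ± 0.078, Hoxd8 by 0.36 ± 0.11 and Hoxc8, of the thorax, by 0.16 ± 0.066, all called, while Hoxc4 (0.18 ± 0.09) and Hoxb7 (0.05 ± 0.13) were not. The antisense RNA Hoxa11-as differed by 0.17 ± 0.057.

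Bone was lower than whole embryo for 7 of the 8 Hox genes (limma, adjusted p under 0.05), by -0.28 to -1.87, where 26.7% of all probe sets were lower. The -0.28 is that of Hoxc8, which lay near the lowest value of any array (4.86). Hoxc8 had a mean of 5.10 in bone and 5.37 in whole embryo, the latter with the control array at 5.70. The eighth gene, Hoxd8, was the exception. Hoxd8 had 9.24, 8.97, 9.46 and 9.25 in bone RA, control, EMD50 and EMD150, against 8.95 to 9.26 in whole embryo, and differed by 0.13 ± 0.12 (limma, adjusted p = 0.406). It was the 1 Hox gene higher in bone than in embryo liver (0.48 ± 0.12, limma adjusted p = 0.00274), where Hoxa10, Hoxa11, Hoxc4 and Hoxb7 were lower. Hoxb7 was lower by -0.55 ± 0.15, a value that included the embryo liver EMD150 array at 7.31, against 6.26 to 6.32 in the other embryo livers, and was -0.32 without it (limma, adjusted p = 0.0175). No Hox gene was called between embryo and maternal liver or between the days of maternal liver.

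**Figure D3:**
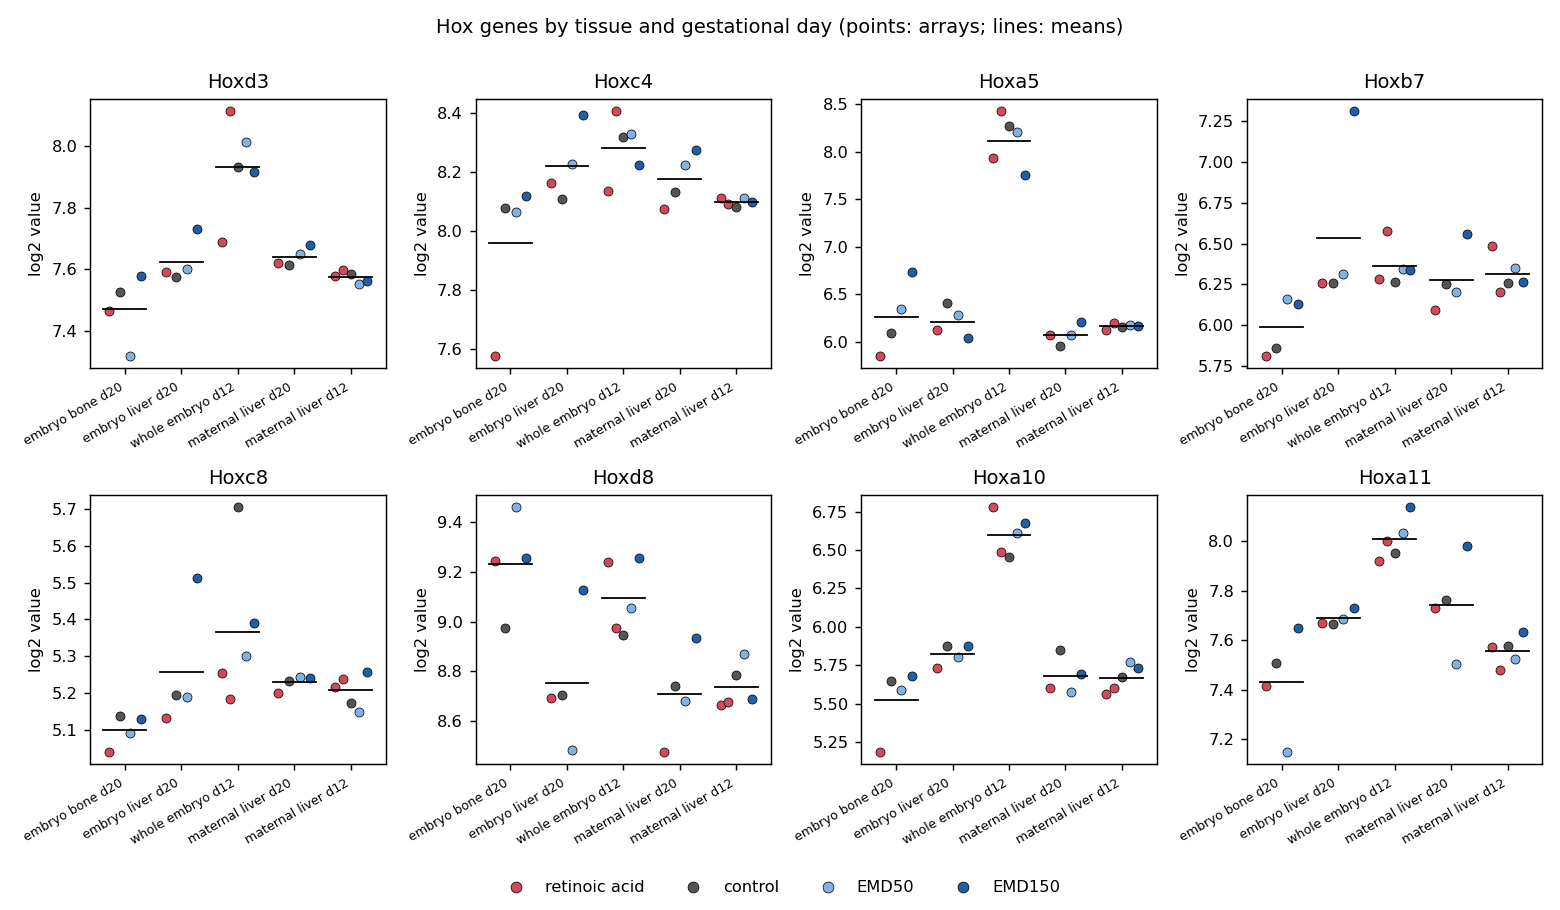
Log2 values of the 8 Hox genes by stratum and treatment, 1 point per array and a line at each stratum mean, each panel with its own axis. Hoxa5 and Hoxa10 are separated in whole embryo from all other strata, Hoxd8 is highest in bone, and the embryo liver EMD150 array is the high point of Hoxb7.

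Of the 78 genes, 34 had stratum means within 0.5 of each other at every probe set. They included Hoxc4, Hoxc8 and Hoxd3, Gata2 and Gata3 of blood and ear, Nkx2-1 of lung and thyroid, Nkx2-5 of the heart, Lhx1 and Lhx5, Pax4 and Pax8, Six3 and Six5, Tbx2, Tbx3 and Tbx19, Sox12 and Sox17, Msx2, and 10 Fox genes from Foxc2 to Foxs1. Of the probe sets, 48 of 101 had such a range, and 53 reached 0.5 (52.5%, against 65.1% of all). Members had low signals as well: 77 of the 101 had a mean below the median of all probe sets, and at this array's sensitivity a flat low signal does not show that a gene is absent.

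**Figure D4:**
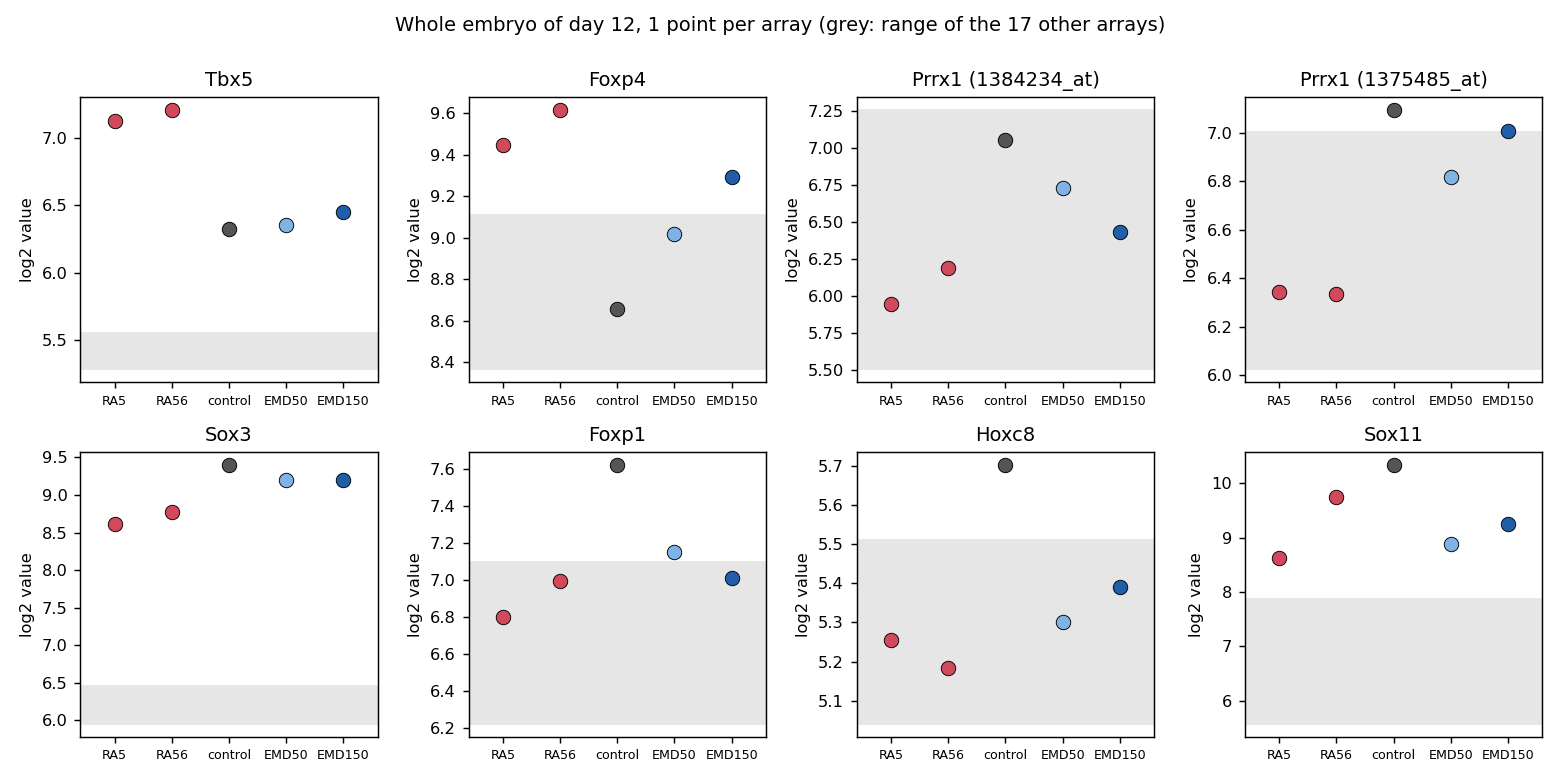
Log2 values of member genes in the 5 whole-embryo arrays of day 12, 1 point per array, with RA5 and RA56 left of control, EMD50 and EMD150 and the range of the other 17 arrays in grey. Both RA arrays lie above the other 3 for Tbx5 and Foxp4 and below them for both Prrx1 probe sets, Sox3, Foxp1 and Hoxc8, but not for Sox11.

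Retinoic acid in whole embryo was tested with both RA arrays against the control array of day 12. No member was called (limma, smallest adjusted p = 0.108), and 15 passed at an unadjusted p under 0.05, 4 higher and 11 lower. Among all probe sets 0.0315% were called and 11.2% passed unadjusted. The test has 2 residual degrees of freedom, from the RA5 and RA56 pairs of whole embryo and maternal liver. The median absolute difference within a pair was 0.245 in whole embryo and 0.0897 in maternal liver. Since both pairs are pooled, the spread used may be too small for whole embryo. In simulated data it recovered 13.5% of probe sets with a difference of 1 and 66% of those with a difference of 2, so a member with a 2-fold change would mostly not be called here. Leaving out arrays of those pairs changes that spread and the count of called members. The share of all probe sets called in those fits is not given, so such counts cannot be set against a background.

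Tbx5 was the gene closest to a call among those higher with retinoic acid. Tbx5 had 7.13 in RA5 and 7.21 in RA56, against 6.32 in control, 6.35 in EMD50 and 6.45 in EMD150, and 5.28 to 5.55 in the 17 arrays of other strata. Both RA arrays stood above the other whole embryos and far above the other strata. The difference from control was 0.85 ± 0.11 (limma, adjusted p = 0.108). Foxp4, a forkhead factor of lung and gut endoderm, had 9.44 and 9.62 in RA5 and RA56, against 8.66 in control, 9.02 in EMD50 and 9.29 in EMD150. Its control was the lowest array and its EMD150 array was next to RA5, with a difference of 0.87 ± 0.21 (limma, adjusted p = 0.333) that was 0.54 against the mean of control and both EMD arrays.

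Prrx1 was the gene closest to a call among those lower. Prrx1 at 1384234_at had 5.95 in RA5 and 6.19 in RA56, against 7.05 in control, 6.73 in EMD50 and 6.44 in EMD150, and at 1375485_at 6.34 and 6.34, against 7.09, 6.82 and 7.0. Both RA arrays were below the other whole embryos at both probe sets. The differences from control were -0.98 ± 0.13 (limma, adjusted p = 0.108) and -0.75 ± 0.12 (adjusted p = 0.181). In bone the probe sets disagreed, the RA array being the highest at 1384234_at (7.26, against 6.23 to 6.47) and the lowest at 1375485_at (6.57, against 6.70 to 7.0).

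Neural genes were among those below control in both RA arrays. Sox3 had 8.61 in RA5 and 8.77 in RA56, against 9.41, 9.20 and 9.20 in control, EMD50 and EMD150, with a difference from control of -0.71 ± 0.19 (limma, adjusted p = 0.366). Sox2 had 6.79 and 7.49 at its main probe set, against 8.05, 7.24 and 7.30, so RA56 lay above both EMD arrays. The difference from control there was -0.91 ± 0.26 (limma, adjusted p = 0.386), or -0.39 against control and EMD arrays together. Its other probe set, 1389826_at, averaged 5.87 in the RA arrays and had 5.86 in control. That difference was 0.006 ± 0.13 (limma, adjusted p = 0.982). Foxp1, a forkhead factor of motor neurons and heart, had 6.80 and 6.99, against 7.62, 7.15 and 7.01 (-0.73 ± 0.16, limma adjusted p = 0.298; -0.36 against control and EMD arrays). Hoxc8 had 5.25 and 5.18, against 5.70, 5.30 and 5.39 (-0.49 ± 0.065, limma adjusted p = 0.114; -0.25 against control and EMD arrays). Except at 1389826_at of Sox2, the control array was the highest of the whole embryos in all of these. The EMD arrays lay nearer to the RA arrays for Sox2 at its main probe set, Foxp1 and Hoxc8.

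Both RA arrays were below control, EMD50 and EMD150 in 17 member probe sets (16.8%, against 9.88% of all) and above all 3 in 4 (3.96%, against 9.91%). The 4 were Tbx5, Foxp4, Foxo3 (only at 1376593_at) and Foxa3. The 17 included both Prrx1 probe sets, Sox3, Sox13, Pax6, Foxp1, Foxc1, Foxm1, Gata5 and Hoxc8. Tbx3 was among them only at 1381464_at and Msx2 only at 1369880_at. At 1371292_at of Msx2, RA5 and RA56 were above control by 0.41 and 0.04. At 1377230_at and 1390627_a_at of Tbx3, RA5 was above control and RA56 below it. Against the control alone, both RA arrays were lower by at least 0.5 in 8 probe sets (7.92%, against 2.46% of all) and higher in 2 (1.98%, against 2.43%), and none reached 1 in both. The arrays of the pair were not alike: RA5 was lower than control by at least 0.5 in 18 probe sets (16.6% of all), and RA56 in 10 (3.42% of all). The neural marker mean was 8.54 in RA5 and 9.22 in RA56, against 9.11 in control, 8.97 in EMD50 and 8.90 in EMD150, and the part of neural and hepatocyte markers in these values was not tested.

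The Hox genes showed no common direction in the RA arrays of whole embryo. Hoxa5 was below control in RA5 (7.94) and above it in RA56 (8.42, against 8.27), and Hoxa10 was above it in both (6.78 and 6.49, against 6.45). Hoxa11 had 7.92 and 8.0, against 7.95 in control, and Hoxd8 had 9.24 and 8.97, against 8.95. None of the 8 was called.

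Over the conceptus strata together (whole embryo, embryo bone and embryo liver), retinoic acid against control called no member (limma, smallest adjusted p = 0.0587), where 1.9% of all probe sets were called. At an unadjusted p under 0.05, 18 members passed, 5 higher and 13 lower, against 12.2% of all. Foxo3 differed by 0.56 ± 0.14 at 1376593_at (limma, adjusted p = 0.0587), and by 0.10 and 0.06 at its other probe sets (adjusted p = 0.77 and 0.90). Prrx1 differed by -0.42 ± 0.11 at 1375485_at (limma, adjusted p = 0.0666) and by -0.15 at 1384234_at (adjusted p = 0.916). Sox3 differed by -0.41 ± 0.11 (limma, adjusted p = 0.067) and Foxp4 by 0.48 ± 0.14 (limma, adjusted p = 0.0957). The Sox3 value includes the bone RA array, which had the lowest neural marker mean of the bone arrays, and is not given without it. The count was 1 without whole-embryo EMD50, bone EMD50 or the embryo liver control, and 2 without embryo liver RA. Whether the RA effect differed between whole embryo and maternal liver of day 12 was tested as well. No member was called (limma, smallest adjusted p = 0.335), where 0.107% of all probe sets were called. At an unadjusted p under 0.05, 8 members passed in that test, against 5.46% of all.

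EMD 82571 called no member either. In whole embryo, the mean of both doses against control gave a smallest adjusted p of 0.451 (limma), and 15 members passed at an unadjusted p under 0.05, 7 higher and 8 lower, against 10.6% of all probe sets, of which 0% were called. Sox11 was the member with the largest difference. It had 8.88 in EMD50 and 9.25 in EMD150, against 10.34 in control, a difference of -1.28 ± 0.41, with the RA arrays at 8.63 and 9.75. The control was the highest of the 5 arrays. Foxn3 at 1377713_at (-0.67 ± 0.21), Foxp1 (-0.54 ± 0.16), Prrx1 at 1384234_at (-0.47 ± 0.13) and Hoxc8 (-0.36 ± 0.065) differed the same way (limma, adjusted p = 0.451 for each). The other probe sets of Foxn3 differed by -0.40 and 0.33 and that of Prrx1 by -0.18. Higher members with the smallest p-values were Six3 (0.32 ± 0.099), Pax8 (0.33 ± 0.10), Pax4 (0.43 ± 0.16), Foxi2 (0.25 ± 0.095) and Foxp4 (0.50 ± 0.21), also with adjusted p = 0.451 each (limma). The retinoic acid and EMD 82571 comparisons share the control array, which was the highest whole-embryo array in 32 members (31.7%, against 30.1% of all) and the lowest in 29 (28.7%, against 28.1%). Leaving out single RA arrays of day 12 changed the EMD 82571 count as well, and the share of all probe sets called in those fits is not given.

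Over the conceptus strata, EMD150 against control called no member (limma, smallest adjusted p = 0.17), with 24 at an unadjusted p under 0.05, 17 higher and 7 lower, against 19% of all probe sets. Foxp4 (0.53 ± 0.14), Foxj1, the factor of motile cilia (0.37 ± 0.11), and Foxn3 at 1388700_at (-0.51 ± 0.16; -0.22 and 0.14 at its other probe sets) were among the members with the smallest p-values. EMD50 against control gave none (smallest adjusted p = 0.926, 2 at an unadjusted p under 0.05, against 4.28% of all). The embryo liver EMD150 array was the highest of its 4 arrays in 56 members (55.4%, against 32.4% of all), among them Hoxb7 and Foxd3, a neural crest factor with 7.26, against 6.32 to 6.38 in the other embryo livers. That array also had the smallest SD of all, 1.51, and among probe sets with a mean below the median it was the highest in 62.3% of members and 44.7% of all; the part of this smaller spread in the EMD150 values was not tested.

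Genes that work with the patterning factors were followed as 3 lists. Of the Hox cofactors and regulators, 13 of 20 genes were measured on 14 probe sets, and in whole embryo against maternal liver 5 were higher, 3 lower and 6 not called, with a median difference of 0.07 (-0.04 over all probe sets). These are 35.7% higher and 21.4% lower, against 35.5% and 34.3% of all. Meis2, a DNA-binding partner of Hox proteins, had 9.88 (RA5), 10.65 (RA56), 10.87 (control), 10.43 (EMD50) and 10.38 (EMD150) in whole embryo, against 6.03 to 6.19 in maternal liver. These did not overlap, and the difference was 4.33 ± 0.20 (limma, adjusted p = 2.93e-13). Pbx3, another partner, rose by 3.31 ± 0.14. Cyp26a1, the enzyme that breaks down retinoic acid, was lower in whole embryo, by 1.92 ± 0.56, a difference that includes the high RA arrays of maternal liver. In maternal liver of day 12 it had 10.05 in RA5 and 11.62 in RA56, against 7.23 to 7.58 in the other 3 arrays, while in whole embryo it had 6.87 and 6.90, against 6.72 to 6.88.

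Among the other patterning factors (35 of 70 genes measured, 43 probe sets), 17 were higher, 14 lower and 12 not called in whole embryo against maternal liver, with a median of 0.09. At 39.5% higher and 32.6% lower the list is near the background of 35.5% and 34.3%. Nr2f1, a nuclear receptor of the forebrain, rose by 2.73 and Twist1 of the mesenchyme by 1.85, while the liver factors Hhex and Hnf4a differed by -3.48 and -2.78. The Polycomb list (23 of 27 genes measured, 25 probe sets) holds genes that keep Hox and other developmental genes silent. It also counts Kmt2a, which is not a Polycomb gene and keeps Hox genes active. Of its probe sets 15 were higher, 3 lower and 7 not called, with a median of 1.14. This is 60% higher and 12% lower, against 35.5% and 34.3% of all. Ezh2, a Polycomb histone methyltransferase, had 10.29 (RA5), 10.98 (RA56), 10.44 (control), 10.39 (EMD50) and 10.32 (EMD150) in whole embryo, against 6.53 to 6.74 in maternal liver. Eed, its partner, rose by 2.03. The groups did not overlap for Ezh2, whose difference was 3.84 ± 0.16 (limma, adjusted p = 5.97e-14). Bone against whole embryo gave 6 higher and 13 lower probe sets of the Polycomb list (24% and 52%, against 19.9% and 26.7% of all, with a median of -0.53, against 0.01 over all). Embryo against maternal liver gave 8 higher and none lower (32% higher, against 16.4% higher and 16.6% lower of all; median 0.13, 0.05 over all). None of the probe sets of the 3 lists was called for retinoic acid or EMD 82571 in whole embryo or over the conceptus strata. These comparisons did not cover treatment within maternal liver, where Cyp26a1 was high in the RA arrays of day 12.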

How the data were processed

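Total RNA of 22 rat samples was labelled with biotin, per the labels' protocols, and measured on single-colour arrays. The deposited values are on the log2 scale, 1 per probe set. The submitters' processing notes name RMA, which summarises a probe set over arrays. Its version, pooling of RNA and joint processing of the arrays are not stated there or in the labels. Of 15923 rows, 57 array controls were left out, and all 15866 others were tested without a filter on low values. The number of arrays limits the precision.

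Samples were grouped by tissue, day and treatment from their titles. Differences were tested by limma 3.58.1 under R 4.3.3, using lmFit, contrasts.fit and then eBayes, its prior variance following intensity. The 6 comparisons of tissue and day used all 22 arrays with stratum and treatment as terms. Those of whole embryo used the 10 arrays of day 12, with a mean per tissue and treatment. Those of the conceptus used all 22 arrays, with treatment effects apart for conceptus and maternal liver. Tests were two-sided, with Benjamini-Hochberg adjustment across the 15866 probe sets, and a call is an adjusted p under 0.05. Differences are given with the standard error of the fit. Single treated arrays of day 20 stand alone and were not tested. The fits were tested on simulated data.

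The members, the 3 lists and the tests were chosen with earlier results of these data known, so none of them is independent support. Named genes were, per comparison, up to 8 member genes in each direction with the largest differences among called ones, or the 5 smallest p-values where fewer than 5 were called, plus all Hox genes and up to 4 genes per list. Others outside that rule, such as Alx1, Tbx3, Foxd2, Foxd3, Msx2 and Nkx6-1, were named after their values were seen. Figures and sequence searches used Python 3.11.15, pandas 2.3.3, numpy 2.4.6 and matplotlib 3.10.9. Alternatives were quantile normalization, median centring, leaving out the lowest 25% of probe sets, no intensity trend, 1 probe set per symbol, control arrays only, fits without particular arrays and a block by RA code.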

Additional observations from a re-analysis of the deposited data

How the results depend on the processing

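The directions and calls of the tissue comparisons held under most settings, and the counts under retinoic acid and EMD 82571 did not. Without the lowest 25% of probe sets, which leaves 55 member probe sets in the fit, the called members were 41 for whole embryo against maternal liver, 31 for bone against whole embryo, 40 for embryo liver against whole embryo, 33 for bone against embryo liver, 1 for maternal liver of day 20 against day 12 and 1 for retinoic acid over the conceptus. Leaving out each array in turn gave 64 to 76 called for whole embryo against maternal liver, 43 to 53 for bone against whole embryo, 71 to 75 for embryo liver against whole embryo, 49 to 58 for bone against embryo liver, 15 to 19 for embryo against maternal liver and 1 to 3 between the days of maternal liver, where median centring and the fit without an intensity trend also gave 1. It gave 0 to 43 for retinoic acid and 0 to 28 for EMD 82571 in whole embryo, 0 to 2 for retinoic acid over the conceptus, and 0 to 0 for EMD150 and for EMD50. Without the RA arrays of embryo bone, of maternal liver of day 20 and of whole embryo RA56 together, 43 members were called for retinoic acid and 28 for EMD 82571 in whole embryo; the spread then comes from the maternal liver pair alone, and single arrays are assumed to vary like it. One retinoic acid effect over all 5 strata called 1 member. The comparisons in whole embryo were not run without its control array. For single genes, 1 difference reversed, Pitx1 in bone against whole embryo with control arrays only (-0.18). With those arrays, 33 named tissue differences kept their direction and moved by more than the larger SD of their groups, and 55 moved by less. Pitx3, Tbxas1, Foxj1, Sox13, Sox10, Foxq1 and Foxa1 each lost a call under at least 1 alternative, Pitx3 and Tbxas1 without bone RA (adjusted p = 0.0939 and 0.0693, limma). The causes of these changes were not tested. The shares of all probe sets called under these alternatives are not given, so the counts are not read as a result about the members.

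With RA5 and RA56 as a replicate block, 8 members were called for retinoic acid and 3 for EMD 82571 in whole embryo, and 1 between the days of maternal liver, the counts of the other comparisons staying within 1.5 times their values. The codes are not said to mark a shared litter or batch, and the RA5 minus RA56 differences of whole embryo and maternal liver correlated at -0.14 over all probe sets (median absolute differences 0.245 and 0.0897), so the pairing is not established. A crossed block, chosen after seeing the data, called 10 and 5 members. For the block fits, too, the share of all probe sets called is not given. The block fits take the spread from very few arrays, and Tbx5 in whole embryo, 0.75 to 0.89 over all settings, had adjusted p-values from 2.33e-09 to 0.366 (limma).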
